A study of Oryza sativa Japonica Group with 4 samples.

Results

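The genes described here are the AP2/ERF transcription factor genes of rice outside 6 DREB1 and DREB2 identifiers that were set aside. A gene was taken when its name began with OsERF or when its deposited description held "ERF domain", "AP2" or "ethylene responsive", the last with or without a hyphen. That rule took 132 of the 33744 genes in the deposited table. By name and description 107 of them are AP2/ERF genes, and these are the genes counted below. The other 25 match in the description of another protein, such as PAP2, VAP27, adaptin or an ethylene-responsive methionine synthase. They are described on their own near the end. The rule does not hold every AP2/ERF gene of rice. SHAT1 and ERF77, for example, carry other wording and lie outside it.

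AP2/ERF proteins bind DNA through the AP2 domain, which gives the family its name. Members of the ERF branch are known for binding the GCC box, and members of the DREB branch for binding the dehydration-responsive element. The gas ethylene reaches the ERF branch through membrane receptors, the kinase CTR1, the membrane protein EIN2 and the EIN3-like factors, which switch on ERF genes. In rice, members of the family are known for roles in submergence, drought, defence, starch synthesis and the building of the spikelet.

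Leaves of rice (Oryza sativa, Japonica group) were profiled by RNA-seq, taken from 14-day-old seedlings after 6 h of drought. OE13-2KR/oswox13-1, which the labels call drought sensitive, was compared with OE13, which they call drought resistant, with 2 libraries of each. The study asked how acetylation of the homeodomain factor OsWOX13 bears on drought genes. Both lines were under drought, so no value below compares drought with watering, and neither a wild type nor a watered group was analysed here. The names differ both in the 2KR form and in the oswox13-1 background, and the part of each cannot be told apart. No label tells whether libraries of a line are separate plants or pools. The p-values below therefore reflect library-to-library spread, which may be technical.

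Values are FPKM, fragments scaled to gene length and to the size of the library, and summed to between 931335 and 941593 per library. Between 3973 and 4819 genes stood at 0 in a library. The number of reads behind a value is unknown. Summed FPKM over 6 leaf markers of photosynthesis was 15655 and 8323 in OE13-2KR/oswox13-1, against 24131 and 12665 in OE13. In each line replicate 1 was the higher, and the lines overlapped. Over 2 seed glutelin genes the sum lay between 0.297 and 1.33 FPKM in every library. The part of these marker levels in the results below was not tested.

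Most of the AP2/ERF family was expressed at low level in these leaves. Of the 107 genes, 6 stood at 0 in all 4 libraries and 33 more averaged under 1 FPKM over the 4 libraries. A further 28 averaged from 1 to 10 FPKM, 30 from 10 to 100 FPKM and 10 reached 100 FPKM or more. The 5 genes with the highest means held 43.8% of the summed FPKM of the family. That sum was 3521 and 3653 FPKM in OE13-2KR/oswox13-1, against 3199 and 3563 FPKM in OE13, so the lines overlapped. Less RNA per cell and fewer cells of a kind cannot be told apart in whole leaves, here or in any value below.

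**Figure D1:**
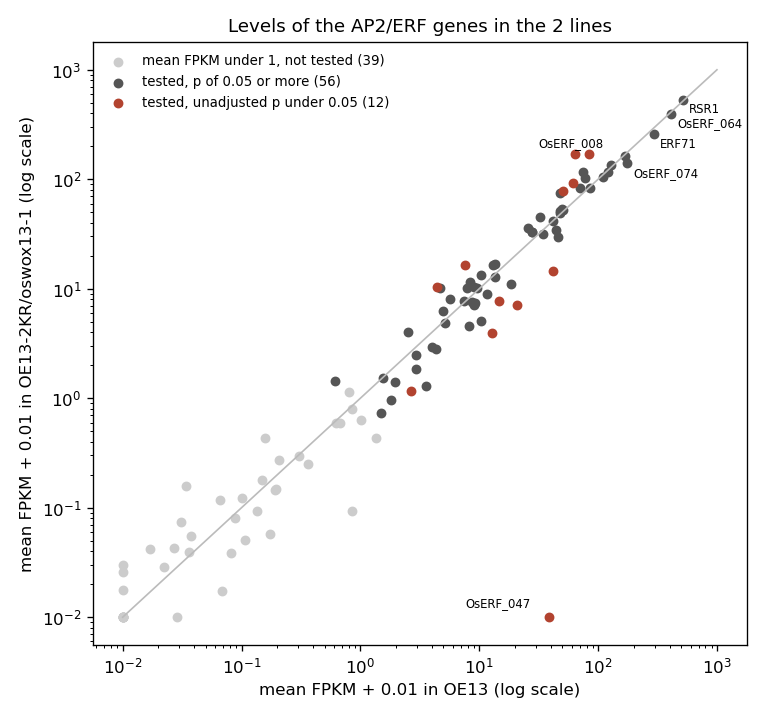
Mean FPKM + 0.01 of each of the 107 AP2/ERF genes in OE13-2KR/oswox13-1 (vertical, log scale) against OE13 (horizontal, log scale), with the diagonal marking equal means. The genes with the highest means lie near the diagonal, and OsERF_047 stands at the foot of the plot because both OE13-2KR/oswox13-1 libraries list it at 0.

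None of the 5 genes with the highest levels passed the test between the lines. RSR1 (Os05g0121600, chromosome 5, 1156300 to 1159703, minus strand), a repressor of starch synthesis genes with a pair of AP2 domains, had 524 and 533 FPKM in OE13-2KR/oswox13-1, against 557 and 473 FPKM in OE13. OsERF_064 (Os03g0183300, chromosome 3, 4372266 to 4373460, minus strand) had 407 and 389 FPKM in OE13-2KR/oswox13-1, against 310.4 and 514 FPKM in OE13. For both genes the OE13 libraries lay on either side of the OE13-2KR/oswox13-1 libraries. The log2 fold changes were 0.04 for RSR1 (SE 0.20, limma adjusted p = 0.917) and -0.00 for OsERF_064 (SE 0.29, limma adjusted p = 0.994). Here and below, a log2 fold change is OE13-2KR/oswox13-1 minus OE13 on log2(FPKM + 1).

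ERF71 (Os06g0194000, chromosome 6, 4731330 to 4733911, plus strand), known in rice for drought resistance and lignin synthesis, had 248 and 267 FPKM in OE13-2KR/oswox13-1, against 291 and 295 FPKM in OE13. OsERF_074 (Os05g0497300, chromosome 5, 24444094 to 24445186, minus strand) had 132 and 148 FPKM in OE13-2KR/oswox13-1, against 174 and 176 FPKM in OE13. Both genes had every OE13-2KR/oswox13-1 library below every OE13 library, but neither passed the test. The log2 fold changes were -0.19 for ERF71 (SE 0.17, limma adjusted p = 0.565) and -0.32 for OsERF_074 (SE 0.17, limma adjusted p = 0.348). OsERF_008 (Os04g0648900, chromosome 4, 33030613 to 33031827, minus strand), described as similar to DREB2F, had 164 and 165 FPKM in OE13-2KR/oswox13-1, against 163 and 172 FPKM in OE13 (a log2 fold change of -0.03, with SE 0.17 and limma adjusted p = 0.939). No gene on the opposite strand overlaps any of these 5 genes.

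AP2/ERF genes with higher and with lower values in OE13-2KR/oswox13-1 were about equal in number, at a share close to that of the whole table. Of the 107 genes, 68 averaged at least 1 FPKM and were tested, and 39 were not. OsERF_047 alone passed an adjusted p under 0.05 (limma with Benjamini-Hochberg adjustment). It was also the only gene to pass among all 20174 genes tested (0.00496%), so that share holds no other gene to compare with. At an unadjusted limma p under 0.05, 6 AP2/ERF genes had higher and 6 had lower values in OE13-2KR/oswox13-1, together 17.6% of those tested, against 20.0% of all genes. Over all genes 8.0% were higher and 12% lower. Under quantile normalisation the split of all genes at that p was 2125 higher and 1903 lower, against 1613 and 2415 in the fit used here. For the AP2/ERF genes that split was then 10 higher and 5 lower. Without OE13-2KR/oswox13-1 replicate 2 it was 3 higher and 9 lower, where all genes together gave 12.2%, and without OE13 replicate 2 it was 6 higher and 4 lower, where all genes gave 8.84%.

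The libraries of the 2 lines did not overlap for 18 AP2/ERF genes with the higher values in OE13-2KR/oswox13-1 and for 18 with the lower values there. Together these are 52.9% of the tested genes, against 56.2% of all genes, of which 23.4% were higher and 32.8% lower. The median log2 fold change was -0.02 over the AP2/ERF genes (quartiles -0.33 and 0.34) and -0.08 over all genes (quartiles -0.42 and 0.24). In size alone, the median log2 difference was 0.341 for AP2/ERF genes and 0.327 for all genes. Over all 4 libraries these shares lie near the background.

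**Figure D2:**
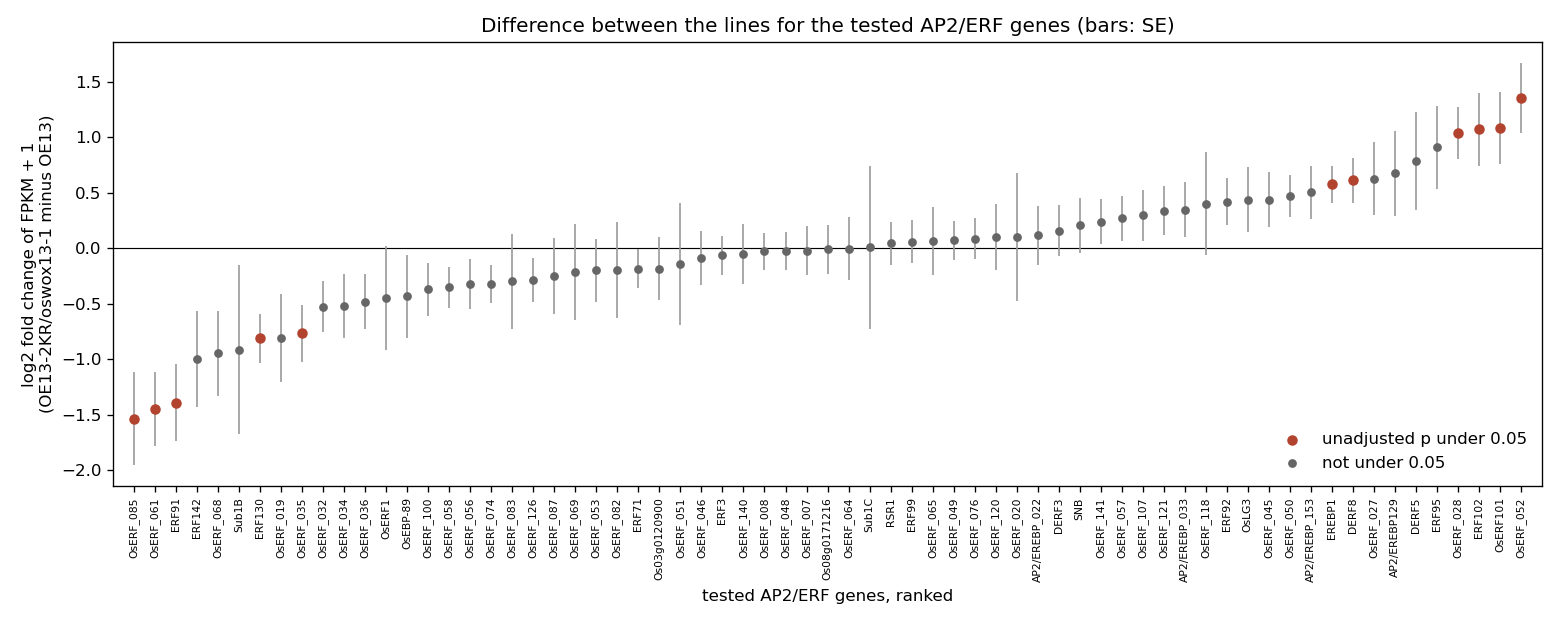
Log2 fold change (OE13-2KR/oswox13-1 minus OE13, log2 of FPKM + 1) of 67 tested AP2/ERF genes in rank order, with bars for 1 SE. OsERF_047 is left out because it is listed at 0 in OE13-2KR/oswox13-1, and the coloured points are the other 11 genes at an unadjusted p under 0.05, 6 of them above 0 and 5 below.

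OsERF_047 (Os03g0191900, chromosome 3, 4780248 to 4781570, minus strand), an ERF-domain gene, was called lower in OE13-2KR/oswox13-1. Its FPKM was 0 in each OE13-2KR/oswox13-1 library, against 41.9 and 34.7 in OE13, with an adjusted limma p of 0.0247. No fold is given against a line listed at 0. The gene met the filter of a mean of 1 FPKM through OE13 alone, and its adjusted limma p was 0.313 without that filter. All of its length is covered by Os03g0191850, a hypothetical gene of the plus strand that had 28.1 and 27.9 FPKM in OE13-2KR/oswox13-1, against 12.7 and 10.6 FPKM in OE13. The sources used here do not give whether reads were counted by strand, which leaves the share of each gene in those reads uncertain. The adjusted p lay between 0.0531 and 0.241 with each library omitted in turn.

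Next to OsERF_047, 7 of the other 67 tested genes differed by at least 2-fold on the log2(FPKM + 1) scale, 4 with higher and 3 with lower values in OE13-2KR/oswox13-1. Over all genes tested 7.61% did so, and with OsERF_047 counted 11.8% of the 68 AP2/ERF genes. The 12 genes at an unadjusted p under 0.05 are given next, and for 11 of them the difference missed the adjusted threshold.

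Among the 6 with higher values in OE13-2KR/oswox13-1, OsERF_052 and OsERF101 had the highest levels. OsERF_052 (Os05g0572000, chromosome 5, 28499327 to 28500571, minus strand), described only by its ERF domain, had 120.2 and 222 FPKM in OE13-2KR/oswox13-1, against 67.0 and 59.9 FPKM in OE13. The OE13-2KR/oswox13-1 libraries lay well apart from each other, and both stood above OE13. Means were 171 ± 71.6 FPKM in OE13-2KR/oswox13-1 and 63.4 ± 5.05 FPKM in OE13 (SD, n = 2 each). That is a log2 fold change of 1.35 (SE 0.32, limma unadjusted p = 0.00717, adjusted p = 0.194).

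OsERF101 (Os04g0398000, chromosome 4, 19651665 to 19656024, plus strand), known in rice for drought response in reproductive tissue, had 173 and 169 FPKM in OE13-2KR/oswox13-1, against 58.1 and 111 FPKM in OE13. Here the spread lay in OE13. Its log2 fold change was 1.08 (SE 0.33, limma unadjusted p = 0.0196, adjusted p = 0.205), and 0.62 without OE13 replicate 1.

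OsERF_028 (Os08g0545500, chromosome 8, 27320678 to 27325475, minus strand), described as similar to the dehydration-responsive element-binding protein DREB1J, had 18.1 and 15.1 FPKM in OE13-2KR/oswox13-1, against 6.41 and 8.81 FPKM in OE13. Means were 16.6 ± 2.08 FPKM in OE13-2KR/oswox13-1 and 7.61 ± 1.69 FPKM in OE13 (SD, n = 2 each). Its log2 fold change of 1.04 (SE 0.24) had an unadjusted limma p of 0.00613 and an adjusted p of 0.194.

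ERF102 (Os09g0457900, chromosome 9, 17306100 to 17307199, plus strand), described as a regulator of internode elongation, had 8.08 and 12.5 FPKM in OE13-2KR/oswox13-1, against 3.26 and 5.53 FPKM in OE13. The log2 fold change was 1.07 (SE 0.32, limma unadjusted p = 0.0200, adjusted p = 0.205). The smallest gap between the lines for ERF102, 8.08 against 5.53 FPKM, was narrower than the spread within OE13-2KR/oswox13-1.

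EREBP1 (Os02g0782700, chromosome 2, 33199818 to 33202681, minus strand), a group VII factor of defence and abiotic stress, had 92.3 and 92.1 FPKM in OE13-2KR/oswox13-1, against 64.4 and 58.8 FPKM in OE13. DERF8 (Os12g0168100, chromosome 12, 3437394 to 3440088, minus strand), described as similar to RAP2.6, had 68.3 and 87.5 FPKM in OE13-2KR/oswox13-1, against 47.6 and 53.1 FPKM in OE13. Both differed by less than 2-fold, with log2 fold changes of 0.58 for EREBP1 (SE 0.17, limma adjusted p = 0.204) and 0.61 for DERF8 (SE 0.20, limma adjusted p = 0.216). Of DERF8, 30.4% is covered by Os12g0168150 on the plus strand, which had 7.04 and 9.89 FPKM in OE13-2KR/oswox13-1, against 5.01 and 5.78 FPKM in OE13. The other 5 genes of higher value have no overlapping gene on the opposite strand.

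Besides OsERF_047, the genes of lower value in OE13-2KR/oswox13-1 were ERF91, OsERF_061, OsERF_085, ERF130 and OsERF_035. ERF91 (Os02g0654700, chromosome 2, 26422187 to 26423485, minus strand), an AP2/ERF gene of abiotic stress response, had 15.7 and 13.1 FPKM in OE13-2KR/oswox13-1, against 28.1 and 54.6 FPKM in OE13. Both OE13 libraries lay above OE13-2KR/oswox13-1, with OE13 replicate 2 the highest. Means were 14.4 ± 1.86 FPKM in OE13-2KR/oswox13-1 and 41.4 ± 18.8 FPKM in OE13 (SD, n = 2 each). That is a log2 fold change of -1.39 (SE 0.34, limma unadjusted p = 0.00878, adjusted p = 0.194), and -0.92 without OE13 replicate 2.

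OsERF_061 (Os05g0361700, chromosome 5, 17246987 to 17248234, plus strand), described as similar to EREBP-2, had 4.62 and 3.20 FPKM in OE13-2KR/oswox13-1, against 9.14 and 16.3 FPKM in OE13. OsERF_085 (Os05g0448700, chromosome 5, 22030690 to 22031336, plus strand) had 10.1 and 4.04 FPKM in OE13-2KR/oswox13-1, against 17.4 and 24.4 FPKM in OE13. For both genes the replicates of a line lay far apart while the lines did not overlap. The log2 fold changes were -1.44 for OsERF_061 (SE 0.33, limma adjusted p = 0.194) and -1.53 for OsERF_085 (SE 0.42, limma adjusted p = 0.197). Without OE13-2KR/oswox13-1 replicate 2 that of OsERF_085 was -0.96.

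ERF130 (Os05g0497200, chromosome 5, 24427953 to 24428867, minus strand), known in rice for fixing the fate of the spikelet meristem, had 7.53 and 8.0 FPKM in OE13-2KR/oswox13-1, against 12.5 and 16.5 FPKM in OE13. It lies within 30 kb of OsERF_074, and the libraries of both genes were lower in OE13-2KR/oswox13-1. OsERF_035 (Os02g0657000, chromosome 2, 26550965 to 26552002, plus strand) had 0.913 and 1.4 FPKM in OE13-2KR/oswox13-1, against 3.08 and 2.22 FPKM in OE13. The log2 fold changes were -0.81 for ERF130 (SE 0.22, limma adjusted p = 0.197) and -0.76 for OsERF_035 (SE 0.26, limma adjusted p = 0.218). None of these 5 genes is overlapped on the opposite strand.

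With 1 library left out at a time, or under another setting of the fit, 5 of the 12 genes stayed at an unadjusted limma p under 0.05 each time they were tested. These were OsERF_047, OsERF_028, OsERF_052, OsERF_061 and ERF91. The share of all genes that stayed so was not worked out. The count therefore has no background, and whether these genes held better than genes at large was not tested. OsERF_047 is overlapped on the opposite strand, so the setting without overlapping genes left it out and did not test it.

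**Figure D3:**
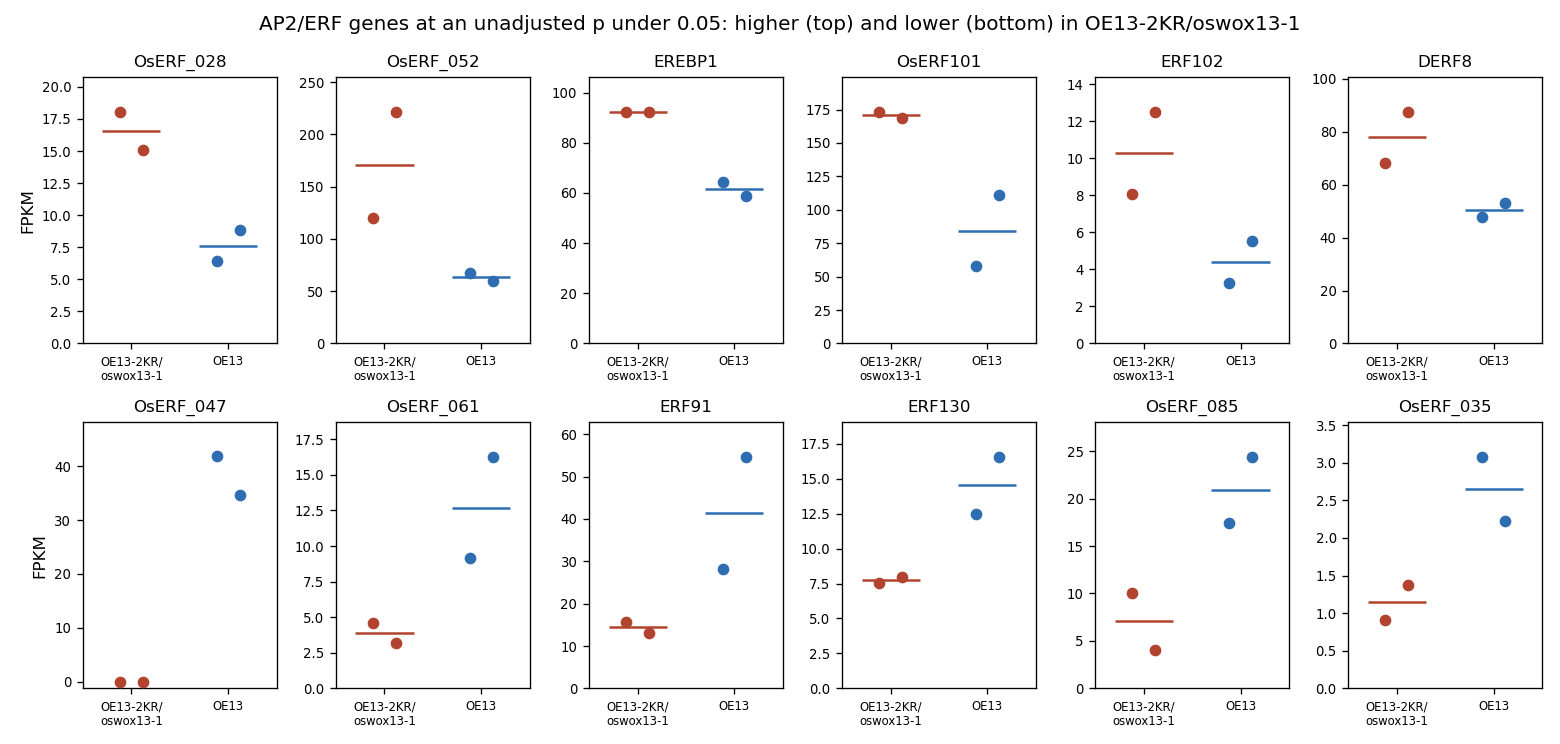
FPKM of the 12 AP2/ERF genes at an unadjusted p under 0.05, with 1 point per library (OE13-2KR/oswox13-1 left, OE13 right) and a bar for the mean of 2 libraries, except for OsERF_047, which is listed at 0 in OE13-2KR/oswox13-1. The lines do not overlap in any panel, but the genes were chosen by p in these same libraries. Over all genes tested, 56.2% did not overlap. Replicates lie far apart in OsERF_052 (120.2 and 222 FPKM in OE13-2KR/oswox13-1) and in ERF91 (28.1 and 54.6 FPKM in OE13).

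The group VII genes form the branch of the family known for submergence and low oxygen, and in these leaves several of them lay further apart between replicates than between lines. A list of 8 such genes, taken by identifier, was used, and it may not hold the whole group. Whether OsERF_061, OsERF_064, OsERF_068 or OsERF_069, which lie outside the list, belong to the group was not checked. Of the 8 listed genes, 6 were tested. At an unadjusted limma p under 0.05, 1 was higher in OE13-2KR/oswox13-1 (EREBP1, given above) and 0 were lower, which is 16.7% against 20.0% of all genes, and the median log2 fold change was -0.09, against -0.08 over all genes. Sub1B (Os09g0287000, chromosome 9, 6404482 to 6406039, minus strand) had 18.6 and 3.67 FPKM in OE13-2KR/oswox13-1, against 10.8 and 26.5 FPKM in OE13. Sub1C (Os09g0286600, chromosome 9, 6387891 to 6389719, minus strand), its neighbour at the Sub1 submergence locus, had 53.0 and 12.3 FPKM in OE13-2KR/oswox13-1, against 17.0 and 38.6 FPKM in OE13. In both genes OE13-2KR/oswox13-1 replicate 1 and OE13 replicate 2 were high, and the lines overlapped. The log2 fold changes were -0.91 for Sub1B (SE 0.76, limma adjusted p = 0.520) and 0.01 for Sub1C (SE 0.73, limma adjusted p = 0.996).

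A cluster of 4 family genes lies on chromosome 3. OsEBP-89 (Os03g0182800, chromosome 3, 4343807 to 4345689, minus strand) had 3.45 and 2.19 FPKM in OE13-2KR/oswox13-1, against 2.75 and 5.89 FPKM in OE13 (a log2 fold change of -0.43, with SE 0.37 and limma adjusted p = 0.531). OsLG3 (Os03g0183000, chromosome 3, 4348736 to 4350531, minus strand), known in rice for grain length and drought tolerance, had 102 and 102 FPKM in OE13-2KR/oswox13-1, against 57.0 and 98.9 FPKM in OE13 (a log2 fold change of 0.44, with SE 0.29 and limma adjusted p = 0.429). Leaving out OE13 replicate 1 gave OsLG3 a log2 fold change of 0.04, and leaving out OE13 replicate 2 gave 0.83 (limma unadjusted p = 0.0233, adjusted p = 0.547). OsERF_069 (Os03g0183200, chromosome 3, 4367273 to 4368453, minus strand) had 43.4 and 19.3 FPKM in OE13-2KR/oswox13-1, against 26.8 and 42.6 FPKM in OE13. OsERF_064, given above, is the last gene of the cluster. In all 4 genes replicate 2 was the higher of the OE13 libraries, and for OsLG3 alone of the 4 the lines did not overlap. Of OsLG3, 38.1% is covered by Os03g0183050 on the plus strand, which had 1.29 and 1.89 FPKM in OE13-2KR/oswox13-1, against 0.747 and 0.902 FPKM in OE13. The other genes of the cluster and both Sub1 genes have no opposite-strand overlap.

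The other listed group VII genes, OsERF_066 (Os03g0341000) and OsERF_067 (Os07g0674800), averaged under 1 FPKM and were not tested. OsERF_066 had 0.597 and 0.563 FPKM in OE13-2KR/oswox13-1, against 0.826 and 0.504 FPKM in OE13, and OsERF_067 had 0.836 and 0.742 FPKM in OE13-2KR/oswox13-1, against 1.14 and 0.547 FPKM in OE13. The lines overlapped in both, and no gene of the opposite strand overlaps either.

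**Figure D4:**
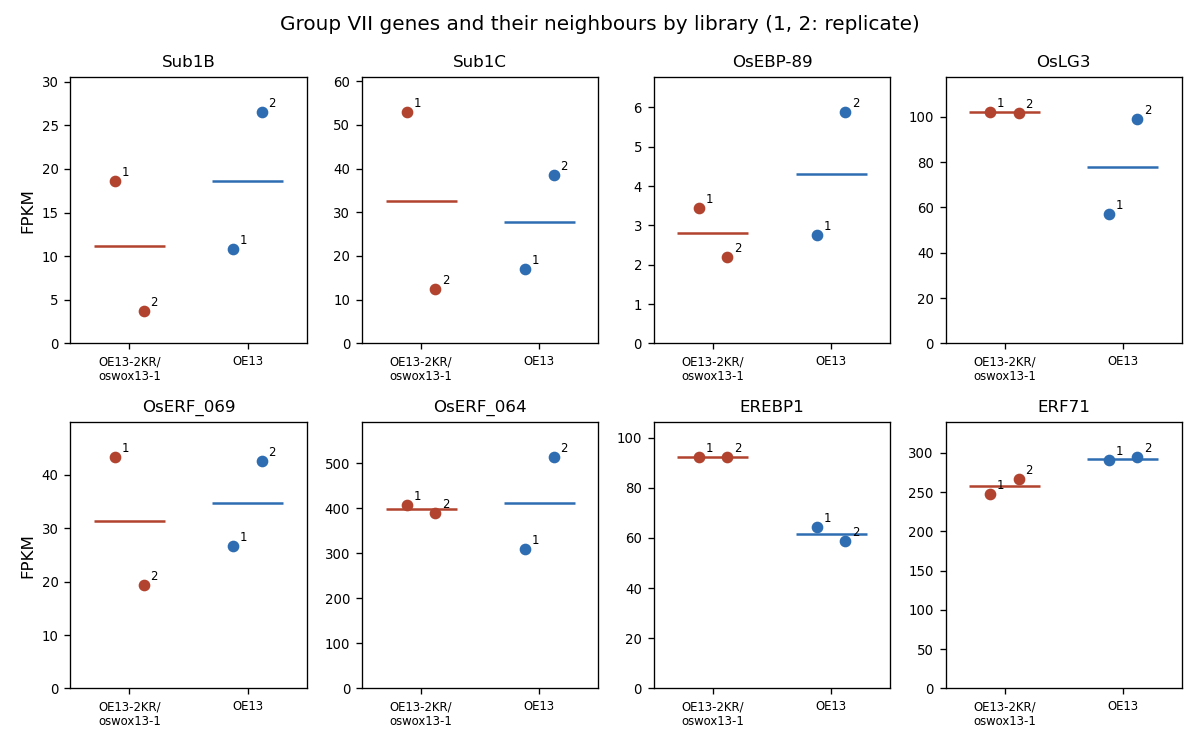
FPKM per library of 6 listed group VII genes and of OsERF_069 and OsERF_064, their chromosome 3 neighbours outside the list. OE13-2KR/oswox13-1 is left and OE13 right, with the replicate number beside each point and a bar for the mean of 2 libraries. In Sub1B, Sub1C and OsERF_069 the high points are OE13-2KR/oswox13-1 replicate 1 and OE13 replicate 2, while the lines do not overlap for EREBP1, ERF71 and OsLG3.

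Large differences between replicates were more frequent in the AP2/ERF genes than over all genes, as a description of these 4 libraries. In OE13-2KR/oswox13-1 the replicates differed by at least 2-fold, on FPKM + 1, for 10 of 68 AP2/ERF genes (14.7%), against 6.82% of all genes tested. In OE13 that held for 5 of 68 (7.35%), against 4.08% of all genes. Together these are 13 genes, of which 1, OsERF_085, was under an unadjusted limma p of 0.05. In 7 of the 13, OE13-2KR/oswox13-1 replicate 1 and OE13 replicate 2 were the higher of their lines, as in the Sub1 genes. In 4 of them the order was the opposite in both lines, among them OsERF_020 (Os02g0676800) with 7.17 and 25.4 FPKM in OE13-2KR/oswox13-1, against 15.5 and 10.3 FPKM in OE13. OsERF_051 (Os10g0371100) was another, with 3.30 and 12.3 FPKM in OE13-2KR/oswox13-1, against 8.52 and 6.28 FPKM in OE13. Neither of these is overlapped on the opposite strand. Over all genes, differences of that size leaned the same way as in the Sub1 genes. In OE13-2KR/oswox13-1 replicate 1 was the higher for 1069 genes and replicate 2 for 306. In OE13 replicate 1 was the higher for 300 genes and replicate 2 for 524. Replicate 1 had the higher leaf marker sum in both lines, and the part of that sum in these differences was not tested.

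A short list of ERF genes overexpressed in rice in drought trials held ERF91, ERF3 and OsERF_048 and is not a full tally, since ERF71 and OsERF101, given above, are also known for drought. At an unadjusted limma p under 0.05, ERF91 had lower values in OE13-2KR/oswox13-1 and OsERF101, outside the list, had higher ones. ERF3 (Os01g0797600, chromosome 1, 33766984 to 33768044, plus strand), a repressor with an EAR motif, had 101 and 108 FPKM in OE13-2KR/oswox13-1, against 116 and 103 FPKM in OE13. OsERF_048 (Os08g0408500, chromosome 8, 19547328 to 19548978, plus strand) had 78.4 and 89.7 FPKM in OE13-2KR/oswox13-1, against 85.6 and 85.2 FPKM in OE13. The lines overlapped for both genes. The log2 fold changes were -0.06 for ERF3 (SE 0.17, limma adjusted p = 0.852) and -0.03 for OsERF_048 (SE 0.17, limma adjusted p = 0.944). Neither is overlapped on the opposite strand.

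The AP2 branch is known for flower and meristem identity. A list of it, taken by identifier, held 4 genes, all of them tested. Of these, 0 were under an unadjusted limma p of 0.05 in either direction, against 20.0% of all genes. The list may not hold the whole branch. AP2/EREBP_153 (Os09g0423800) and AP2/EREBP_131 (Os11g0129700), described like ERF142 as similar to AP2-1, lie outside it. Besides RSR1, SNB (Os07g0235800), which times the change from spikelet to floral meristem, had 26.2 and 39.8 FPKM in OE13-2KR/oswox13-1, against 27.9 and 27.8 FPKM in OE13. AP2/EREBP_033 (Os03g0818800) had 11.3 and 15.6 FPKM in OE13-2KR/oswox13-1, against 11.5 and 9.11 FPKM in OE13. For both genes OE13-2KR/oswox13-1 replicate 2 was the highest library. ERF142 (Os05g0389000) had 7.34 and 2.75 FPKM in OE13-2KR/oswox13-1, against 8.43 and 12.2 FPKM in OE13 (a log2 fold change of -0.997, with SE 0.43 and limma adjusted p = 0.277). The 4 listed genes had a median log2 fold change of 0.12. AP2/EREBP129 (Os01g0141000), a RAV-type gene with a B3 domain and a role in salt response, had 137 and 94.5 FPKM in OE13-2KR/oswox13-1, against 50.3 and 100.2 FPKM in OE13 (a log2 fold change of 0.67, with SE 0.38 and limma adjusted p = 0.364). No gene of the opposite strand overlaps the 4 listed genes, AP2/EREBP129 or AP2/EREBP_131. Of AP2/EREBP_153, 57.1% is covered by Os09g0423902 on the opposite strand.

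Genes whose description names the dehydration-responsive element (DRE), a DRE-binding protein or TINY numbered 13, of which 8 were tested. OsERF_007, OsERF_009 and OsERF_017 are in the list by the word TINY alone. At an unadjusted limma p under 0.05, 1 was higher in OE13-2KR/oswox13-1, OsERF_028, and 0 were lower, which is 12.5% against 20.0% of all genes. The median log2 fold change of these genes was 0.09, against -0.08 over all genes. OsERF_049 (Os02g0752800) had 127 and 145 FPKM in OE13-2KR/oswox13-1, against 125 and 133 FPKM in OE13, and 78.1% of it is covered by Os02g0752701 on the opposite strand. OsERF_007 had 111 and 123 FPKM in OE13-2KR/oswox13-1, against 101 and 139 FPKM in OE13, with no such overlap. The lines overlapped for both genes.

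Genes that overlap on opposite strands were fewer in the family than in the table as a whole. Of the 68 tested genes, 6 (8.82%) shared part of their span with a gene of the opposite strand, against 22.1% of all genes tested. For 3 of the 6, OsERF_047, OsERF_049 and AP2/EREBP_153 (Os09g0423800), at least 50% of the gene was covered.

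Upstream of the ERF genes, the ethylene pathway was described over 29 genes taken by words in their descriptions. Of them 25 were tested, with 1 of higher and 1 of lower value in OE13-2KR/oswox13-1 at an unadjusted limma p under 0.05, against 20.0% of all genes in either direction, and none passed the adjusted threshold. With OE13 replicate 2 left out no ethylene gene was under that p, against 8.84% of all genes. Without OE13 replicate 1 there was 1 of higher and 3 of lower value, against 12.4% of all genes. Leaving out OE13-2KR/oswox13-1 replicate 1 or replicate 2 gave 3 of higher and 2 of lower value each time, against 24.6% of all genes without replicate 1 and 12.2% without replicate 2. The median log2 fold change of the list was 0.10, against -0.08 over all genes. Summed FPKM of the list was 1821 and 2171 in OE13-2KR/oswox13-1, against 1693 and 1659 in OE13.

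Ethylene is made from ACC, which ACC synthases form and ACC oxidases turn into the gas. SSG6 (Os06g0130400) is described as an ACC synthase, but also as homologous to aminotransferase and as controlling starch grain size in endosperm. SSG6 had 145 and 119.9 FPKM in OE13-2KR/oswox13-1, against 80.6 and 77.1 FPKM in OE13. Its log2 fold change was 0.74 (SE 0.18, limma unadjusted p = 0.00930, adjusted p = 0.194). ACO3 (Os02g0771600), similar to an ACC oxidase, had 27.5 and 25.8 FPKM in OE13-2KR/oswox13-1, against 41.3 and 53.5 FPKM in OE13 (log2 fold change -0.80, SE 0.20, limma unadjusted p = 0.00991, adjusted p = 0.194). Both separated the lines, in opposite directions, and neither is overlapped on the opposite strand. Another ACC oxidase gene, ACO1 (Os09g0451000), had 119 and 290.5 FPKM in OE13-2KR/oswox13-1, against 116 and 78.6 FPKM in OE13, with 76.1% of it covered on the opposite strand. For ACO1, OE13-2KR/oswox13-1 replicate 2 stood far above the other libraries.

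Among the signalling genes, OS-ERS1 (Os03g0701700), an ethylene receptor, had 109 and 116 FPKM in OE13-2KR/oswox13-1, against 104 and 107 FPKM in OE13, with 76.4% of it covered on the opposite strand. ETR2 (Os04g0169100), another receptor, had 60.4 and 32.9 FPKM in OE13-2KR/oswox13-1, against 31.2 and 41.1 FPKM in OE13. EIN2 (Os07g0155600), which carries the signal to the nucleus, had 10.9 and 8.92 FPKM in OE13-2KR/oswox13-1, against 10.9 and 8.26 FPKM in OE13. None of these had an adjusted limma p under 0.05, and EIN2 and ETR2 overlapped between the lines. A further 3 genes carry the description "similar to EIN2", so the split of reads between such copies is uncertain.

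The EIN3-like factors are known, in Arabidopsis, to bind the promoter of an ERF gene. OsEIL3 (Os09g0490200) had 38.7 and 48.0 FPKM in OE13-2KR/oswox13-1, against 32.2 and 29.7 FPKM in OE13 (log2 fold change 0.46, limma unadjusted p = 0.0591, adjusted p = 0.266). EIL2 (Os07g0685700) had 359 and 519 FPKM in OE13-2KR/oswox13-1, against 375 and 392 FPKM in OE13. The lines did not overlap for OsEIL3 and overlapped for EIL2. ETR2, EIN2, OsEIL3 and EIL2 have no overlapping gene on the opposite strand.

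**Figure D5:**
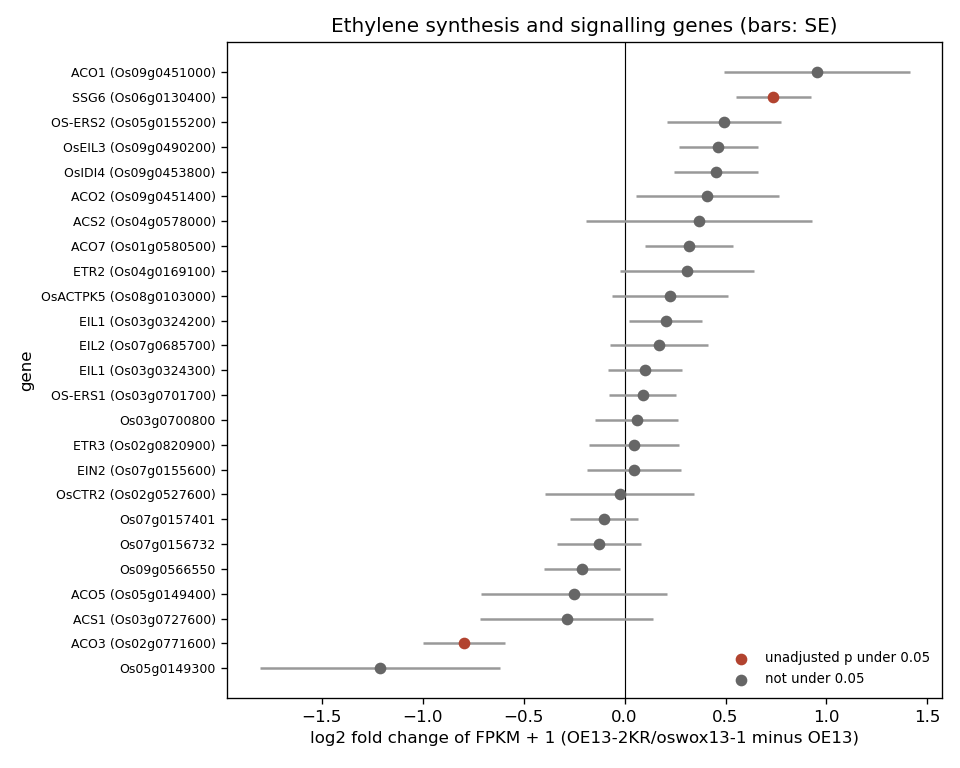
Log2 fold change (OE13-2KR/oswox13-1 minus OE13, log2 of FPKM + 1) of 25 tested ethylene synthesis and signalling genes, with bars for 1 SE. SSG6 at 0.74 and ACO3 at -0.80 are the genes at an unadjusted p under 0.05, and most bars reach across or near 0.

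The authors' deposited table of genes marked up holds 1207 genes, of which 1112 were paired with the FPKM table, and 1107 of these had the higher mean FPKM in OE13. Its fold changes are therefore OE13 over OE13-2KR/oswox13-1, the other way round from those above. Of the 107 AP2/ERF genes 7 are in it, beside 1112 of all 33744 genes with FPKM values. In the authors' deposited table none of the 7 has an adjusted p under 0.05. OsERF_035 has a log2 fold change of 1.22 and an adjusted p of 0.105 in the authors' deposited table, and ERF130 one of 0.65 with an adjusted p of 0.266. Both had lower FPKM in OE13-2KR/oswox13-1 above. That direction follows from the choice of genes marked up, so it is no separate check.

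The authors' deposited table also gives OsERF_038 (Os02g0231000) a log2 fold change of 1.70 with an adjusted p of 0.174, although its level was low, with 0.0729 and 0.0926 FPKM in OE13-2KR/oswox13-1, against 0.980 and 0.709 FPKM in OE13. OsERF_129 (Os04g0655700), at 1.43 in the authors' deposited table, had 0.370 and 0.472 FPKM in OE13-2KR/oswox13-1, against 1.88 and 0.793 FPKM in OE13. Neither averaged 1 FPKM, so neither was tested above. The other members in the authors' deposited table are OsERF_032, OsERF_068 and OsERF_112, with log2 fold changes of 0.92, 1.37 and 2.69. OsERF_112 did not exceed 0.0692 FPKM in any library and was not tested. Of the 4 that were tested, ERF130 and OsERF_035 were at an unadjusted limma p under 0.05, and OsERF_068 (0.0522) and OsERF_032 (0.0706) were not. OsERF_047 was not among the paired genes. None of the 7 is overlapped on the opposite strand.

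Of the 25 genes that the rule took by letters alone, 16 were tested, with 3 of higher and 1 of lower value in OE13-2KR/oswox13-1 at an unadjusted limma p under 0.05, against 20.0% of all genes in either direction. None of the 25 passed the adjusted threshold. Os02g0643000, described as a VAP27 protein, had 34.9 and 26.5 FPKM in OE13-2KR/oswox13-1, against 18 and 15.7 FPKM in OE13 (a log2 fold change of 0.82, with SE 0.22 and limma adjusted p = 0.195), with no opposite-strand overlap. Os12g0623900, described as an ethylene-responsive methionine synthase, had 242 and 294 FPKM in OE13-2KR/oswox13-1, against 171 and 196 FPKM in OE13 (a log2 fold change of 0.54, with SE 0.20 and limma adjusted p = 0.232), and 44.4% of it is covered by a gene of the opposite strand listed at 0 in every library. For both the lines did not overlap. Os10g0161625, also described as a VAP27 protein, had 1.10 and 0.831 FPKM in OE13-2KR/oswox13-1, against 1.70 and 2.41 FPKM in OE13, and 99.0% of it is covered by Os10g0161550, which had 3.43 and 0.763 FPKM in OE13-2KR/oswox13-1, against 6.25 and 8.55 FPKM in OE13. With these 25 genes included, 9 genes had higher and 7 lower values, which is 19.0% of the 84 tested, against 20.0% of all genes.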

How the data were processed

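Leaf RNA of 2 lines was profiled by paired-end RNA-seq (150 bp), per the labels' protocols, with 2 libraries per line. The molecule label reads genomic DNA, but the protocol extracts RNA, and the values were read as RNA. The authors deposited an FPKM value for each gene in each library, per the file headers. The sources used here give neither what computed the FPKM nor whether counting used strand. The build IRGSP 1.0, DESeq2 1.38.3, featureCounts 2.0.0 and HISAT2 2.2.1 are named in the submitters' processing notes without a role. Coordinates were copied from the deposited table and were read as positions on IRGSP 1.0. A second deposited table by the authors gives a log2 fold change, a p-value and an adjusted p-value per gene for genes marked up, per the file headers. Their list of genes marked down carries identifiers of another type and was not used.

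No counts were among the files, so log2(FPKM + 1) was tested with limma 3.58.1 (R 4.3.3) under a trended variance over the 20174 genes averaging at least 1 FPKM, with Benjamini-Hochberg adjustment over all of them. The added 1 understates differences of low genes. Of the 68 AP2/ERF genes tested, 4, OsERF_047 among them, averaged under 1 FPKM in 1 line and passed through the other. Low FPKM values showed no whole-read steps, so the depth is unknown and counting intervals could not be had. An exact permutation test of a single gene cannot go below 0.333 with 2 libraries against 2. On simulated data for this comparison over 20174 genes with 200 changed, the test found 0% of 67 genes shifted by 1 on the log2 scale, 53.7% of 67 shifted by 2 and 97.0% of 66 shifted by 4, beside 2 false calls.

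The genes named are up to 8 in each direction with the smallest limma p among those under an unadjusted p of 0.05, over all 132 genes the rule took; the 5 with the highest mean; the group VII and drought-trial genes; and genes at 0 in both libraries of 1 line and at least 1 FPKM in both of the other. Other genes were named after their values were seen. The genes and lists were chosen with earlier results of these data known. The 25 genes described as other proteins were set apart on that wording. The ethylene list was taken by words. ACC oxidase and ACC synthase were added and 4 matches outside the pathway dropped after the descriptions were read. The list of genes described by the dehydration-responsive element, DRE-binding or TINY was also made then. Alternatives changed the added value, the filter, the scaling, the variance model, the replicate block, each library in turn and genes with opposite-strand overlap. Sequences of these genes were not used here.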

Additional observations from a re-analysis of the deposited data

How the results depend on the processing

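The named genes other than OsERF_047 missed the adjusted threshold in the fit used here, so they had no call to lose. Keeping side of the threshold is therefore a weak check for them. Over 12 other settings, 26 named genes gave 304 values, of which 282 kept direction and side of the threshold. OsERF_047 alone lost its adjusted call, in 6 of them, and 8 genes changed sign. The genes called over the whole table, 1 as reported, numbered 0 without a filter, with the replicate block and without genes overlapping on opposite strands, 2 under quantile normalisation, and 0 to 5 with 1 library left out. For AP2/ERF genes that 1 call became 0 without a filter, with the replicate block, without overlapping genes and without any 1 library (0 to 0). The adjusted p of OsERF_047 was 0.313 without a filter. Quantile normalisation moved the median of all genes to 0.03, from -0.08, and that of AP2/ERF genes to -0.0019. At an unadjusted limma p under 0.05 it gave 10 AP2/ERF genes higher, 9 of them outside the named branches, 2 of the dehydration-responsive list and 2 ethylene genes. Without a filter 8 genes outside those branches were lower, 2 of the dehydration-responsive list were higher and 1 lower, and 2 ethylene genes were higher. Untrended variance gave 1 lower in the dehydration-responsive list, and median ratio scaling 3 ethylene genes higher. At that unadjusted p all genes gave 20.0% with quantile normalisation, 14.2% without a filter, 19.6% with untrended variance and 20.1% with median ratio scaling.

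Medians (log2) moved with a mean of at least 5 FPKM to 0.0513 for AP2/ERF genes, 0.0632 outside the named branches and 0.135 for the ethylene list, and with median ratio scaling to 0.0589, 0.0584 and 0.183 for these and 0.0176 for the drought-trial genes. That of the ethylene list was 0.122 with quantile normalisation and 0.059 without overlapping genes.

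With 1 library left out, the median log2 fold change of AP2/ERF genes ran from -0.0625 to 0.052. Outside the named branches it ran from -0.0625 to 0.053, and for the ethylene list from -0.059 to 0.184. The median of the listed group VII genes ran from -0.40 to 0.28 and that of the drought-trial genes from -0.15 to -0.0187. It ran from -0.0276 to 0.276 for the AP2 branch and from -0.0262 to 0.169 for the dehydration-responsive list.

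Signs changed with median ratio scaling for ERF3 (0.0176), OsERF_064 (0.0781), OsERF_008 (0.0556) and OsERF_048 (0.0565), with quantile normalisation for RSR1 (-0.0304) and with an added value of 0.1 for Sub1C (-0.0011). With 1 library left out the log2 fold change ran from -0.15 to 0.0211 for ERF3, -0.37 to 0.36 for OsERF_064, -0.067 to 0.0133 for OsERF_008, -0.12 to 0.0698 for OsERF_048, -0.074 to 0.16 for RSR1, -1.0 to 1.02 for Sub1C, -1.95 to 0.12 for Sub1B and -0.87 to 0.00503 for OsEBP-89. The cause of these changes was not tested.

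The labels do not say that replicate numbers mark a shared batch, and deviations of same-numbered libraries correlated at -0.0915 over 20174 genes, so the numbers were not taken as pairs. With the replicate block the adjusted limma p of OsERF_047 was 0.282. At an unadjusted limma p under 0.05, 7 AP2/ERF genes were then higher and 5 lower, where all genes gave 16.7%.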
